A study of Mus musculus with 11 samples.

Results

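The 10 genes examined here, reported in the literature as targets of the let-7 microRNAs, are Acvr1c, Nras, Ccnd2, E2f5, E2f6, Nr6a1, Plagl2, Arid3b, Hmga1 and Gatm. They were found by mapping Ensembl identifiers of the count table to these symbols, and all 10 were present among its 39017 genes. RNA came from mice in which the floxed Dicer gene was removed by Camk2a-Cre (Camk2a-Cre;Dicer flox/flox, called KO here). This driver is active in excitatory neurons of the forebrain. By that design glia, vessels and inhibitory neurons in the same tissue piece should keep Dicer, which was not measured here. The labels call the comparison animals control and do not give their genotype. The neocortex gave 3 KO libraries (D5130, D5132 and D5133) and 3 control libraries (D5129, D5134 and D5135), all from males. The hippocampal CA1 region gave 2 KO libraries (D5130 and D5133, males) and 3 control libraries (D5134 and D5135, males, and D5138, a female). All animals were 13 to 14 weeks old, and each library is 1 tissue of 1 animal, so that 7 animals stand behind the 11 libraries.

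MicroRNAs are cut from their precursors by Dicer and guide Argonaute proteins to messenger RNAs, mainly through pairing of the seed, bases 2 to 8 of the microRNA, with the 3′ UTR of the message, which lowers its translation and stability. The let-7 family is held low in stem cells by the RNA-binding protein Lin28 and accumulates as cells differentiate, and it is among the most abundant microRNA families in the adult brain. Its reported targets are mostly growth, cell cycle and embryonic chromatin genes. Loss of a microRNA is therefore usually examined as a rise of its target messages.

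The mature sequences show what the family members share, with the seed in capitals, as RefSeq gives them on GRCm38.p6. Of 11 listed let-7 family names (13 loci), 10 names (12 loci) carry the same seed, GAGGUAG, and let-7j differs from them in it. Shown are 3 names with the shared seed, and let-7j.
let-7a-5p: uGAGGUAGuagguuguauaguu
let-7g-5p: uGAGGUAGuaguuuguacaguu
miR-98-5p: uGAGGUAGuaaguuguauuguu
let-7j: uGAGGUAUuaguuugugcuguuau

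The complement of the shared seed was searched for on the transcript strand of the longest annotated 3′ UTR of each gene (GENCODE M21, GRCm38). The matches counted were the 8mer CTACCTCA, the 7mer-m8 CTACCTC and the 7mer-A1 TACCTCA, and an 8mer was not counted again as a 7mer. All 10 genes held at least 1 match, 26 in all, and 3 of them (Acvr1c, E2f6 and Nr6a1) held an 8mer. Targets may have been reported partly because of such matches, so a match in all 10 is no independent result. Over the 3′ UTRs of 20472 genes, 15% held any match and 3.09% an 8mer, but longer UTRs hold more by length alone. The UTRs of Acvr1c (7465 bases), Nras (3727 bases) and Ccnd2 (5173 bases) are long, and among UTRs of 0.8 to 1.25 times their lengths 58.9%, 32.7% and 44.7% held a match. Nr6a1 stood furthest from UTRs of its length, with 3 8mers and 5 further 7mers in 4453 bases, a number reached by 0.0751% of 1332 such UTRs. Arid3b held 5 matches in 2160 bases, which 0.102% of 2944 such UTRs reached. Both shares are so small that the gene itself, if counted among such UTRs, can make up all or part of them. The matches of the 3 genes that changed in a tissue, and the 8mers of Nr6a1 and E2f6, are printed in transcript direction with the match in capitals. A match is a stretch of letters and was not measured as a binding site.
Acvr1c 8mer, chr2:58274810-58274831, minus strand: gttttattttagttCTACCTCA
Acvr1c 7mer-m8, chr2:58273735-58273756, minus strand: agggtttggaggatCTACCTCt
Nras 7mer-m8, chr3:103064360-103064381, plus strand: cctcttcagaataaCTACCTCc
Nras 7mer-A1, chr3:103066917-103066938, plus strand: agtgaaggtctgcttTACCTCA
Ccnd2 7mer-A1, chr6:127128300-127128321, minus strand: aaagagagtattcttTACCTCA
Ccnd2 7mer-A1, chr6:127128222-127128243, minus strand: ttttcgttttcctaaTACCTCA
Ccnd2 7mer-A1, chr6:127125586-127125607, minus strand: tatccttctgccatgTACCTCA
Nr6a1 8mer, chr2:38727449-38727470, minus strand: gttgacaaagacaaCTACCTCA
Nr6a1 8mer, chr2:38726592-38726613, minus strand: aaaggggcattaaaCTACCTCA
Nr6a1 8mer, chr2:38723685-38723706, minus strand: agtgcatcatgaacCTACCTCA
E2f6 8mer, chr12:16826404-16826425, plus strand: tcacctagcgctctCTACCTCA

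The last Ccnd2 match lies beyond the end that the deposited table gives for the gene (127125779 to 127151048 on chromosome 6), so its stretch of the UTR may not have been counted.

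The gene reads of a library summed to between 43144097 and 58329441 in the neocortex and to between 24806581 and 35684618 in the CA1. Levels are CPM (counts scaled to a common library total), computed from library sizes with the TMM factors of edgeR. Dicer1, the deleted gene, had 61.0 ± 2.16 CPM in KO neocortex and 62.7 ± 3.6 CPM in control neocortex (SD, n = 3 each), and 72.5 ± 1.23 CPM in KO CA1 (n = 2) and 72.7 ± 3.45 CPM in control CA1 (n = 3). The edgeR adjusted p was 0.797 in the neocortex and 0.988 in the CA1. These counts cover the whole gene in all cell types, so they do not check the genotype. In tissue RNA, fewer cells of a type and less RNA per cell cannot be told apart. Of 3 markers of CA1 neurons looked up, Fibcd1 separated the tissues (127 to 162 CPM in CA1 and 9.27 to 12.6 CPM in neocortex libraries), while Wfs1 (68.7 to 215 CPM in CA1 and 71.8 to 132 CPM in neocortex libraries) and Mpped1 (59.4 to 81.5 CPM in CA1 and 67.6 to 80.8 CPM in neocortex libraries) overlapped between them. Prox1, which marks the neighbouring dentate gyrus, also stood at 109 to 157 CPM in the CA1 libraries.

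All 10 genes were expressed in adult brain, with at least 1 CPM in every control library of both tissues, and all passed the filter on low counts. The level per length (CPM per kilobase of exon, M21) spread widely in control neocortex. Gatm was highest at 36.0 ± 1.60, Hmga1 (9.14 ± 0.809), Nras (9.07 ± 0.443) and Ccnd2 (7.55 ± 1.71) followed without differing beyond their spread, and E2f6 (6.11 ± 0.448) and E2f5 (6.10 ± 0.0896) stood side by side. Acvr1c (2.84 ± 0.174) and Plagl2 (1.68 ± 0.0286) came next, and Arid3b (1.36 ± 0.306) and Nr6a1 (1.34 ± 0.155) were lowest and overlapped (SD, n = 3 each). E2f6 ends at 16826743 in the deposited table and at 16839742 in M21. Part of its exon length may therefore not have been counted, and its level per length may be too low. In control CA1 the order was much the same, with Gatm at 33.1 ± 1.65, Ccnd2 second at 11.6 ± 1.80, and Nr6a1 (1.06 ± 0.134) and Arid3b (0.765 ± 0.151) at the low end (SD, n = 3 each). The tissues were made with different kits and are set side by side without a test.

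**Figure D1:**
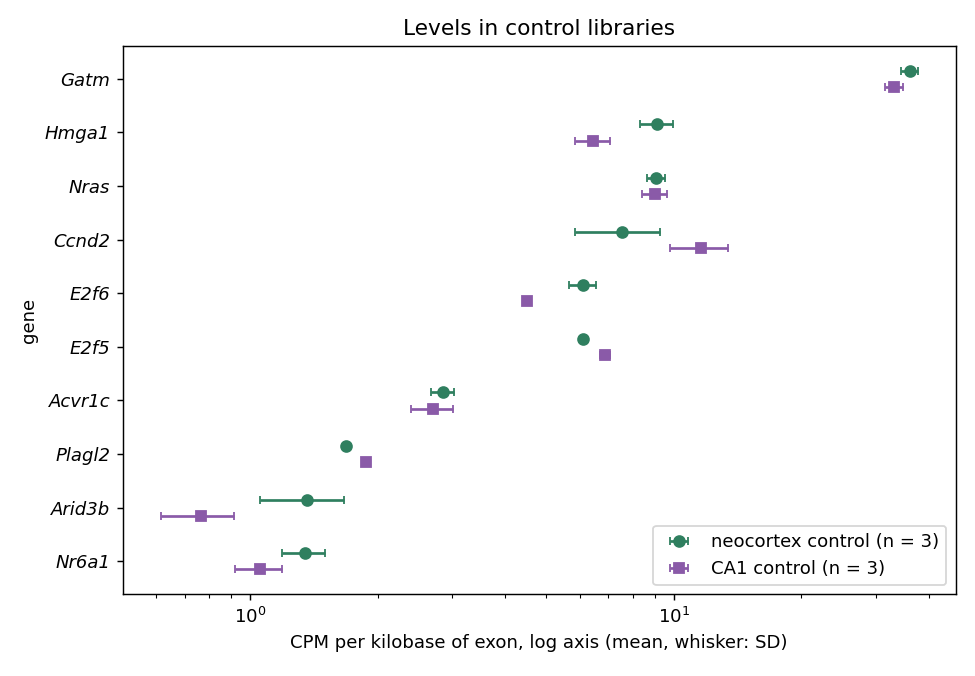
Mean level of each gene in control libraries of the neocortex (circles, n = 3) and the CA1 (squares, n = 3), in CPM per kilobase of exon on a log axis, with whiskers for the SD. Gatm stands alone at the top, and Arid3b and Nr6a1 are at the bottom in both tissues.

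The question of the main comparison is whether these messages were higher where Dicer had been removed. A gene is said here to have risen or fallen where its edgeR quasi-likelihood test, adjusted by Benjamini-Hochberg over all genes tested in the tissue, gave an adjusted p under 0.05, and p-values measure the spread between animals. In the neocortex, 2 of the 10 rose (Acvr1c and Nras), none fell, and 8 did not pass. Of all 16971 genes tested there, 1.51% rose and 1.2% fell. In the CA1, 1 of the 10 rose (Ccnd2), none fell, and 9 did not pass, where 2.47% of 18274 genes rose and 1.41% fell. Beside these counts, unadjusted p-values under 0.05 were reached by 4 neocortex genes and 3 CA1 genes, all of them higher in KO. Of all genes, 8.94% were higher and 9.02% lower at that level in the neocortex, and 9.51% higher and 7.78% lower in the CA1. These shares stand beside every count at an unadjusted p under 0.05 given below for other lists. DESeq2 called Acvr1c, Nras and Ccnd2 (3 genes) higher in KO neocortex and Ccnd2 (1 gene) higher in KO CA1. Of 24185 neocortex genes it tested, DESeq2 called 476 higher and 432 lower, more than edgeR did. These numbers stand beside every DESeq2 count for the neocortex given below. The number of all genes that DESeq2 called higher in the CA1 is not given here, and nothing is read from its counts of higher genes there. Fold changes were small: the median log2 fold change (KO over control) of the 10 was 0.13 in the neocortex, against 0.0021 over all genes, and 0.096 in the CA1, against -0.00041 over all genes. The log2 fold change was above 0 for 9 of 10 in the neocortex, as for 50.6% of all genes, and for 8 of 10 in the CA1, as for 49.9% of all genes. Every KO library lay above every control library for 4 genes in the neocortex (Acvr1c, Nras, Ccnd2 and Plagl2), as it did for 11.6% of all genes, and for 3 in the CA1 (Nras, Ccnd2 and Nr6a1), as it did for 17.4% of all genes.

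**Figure D2:**
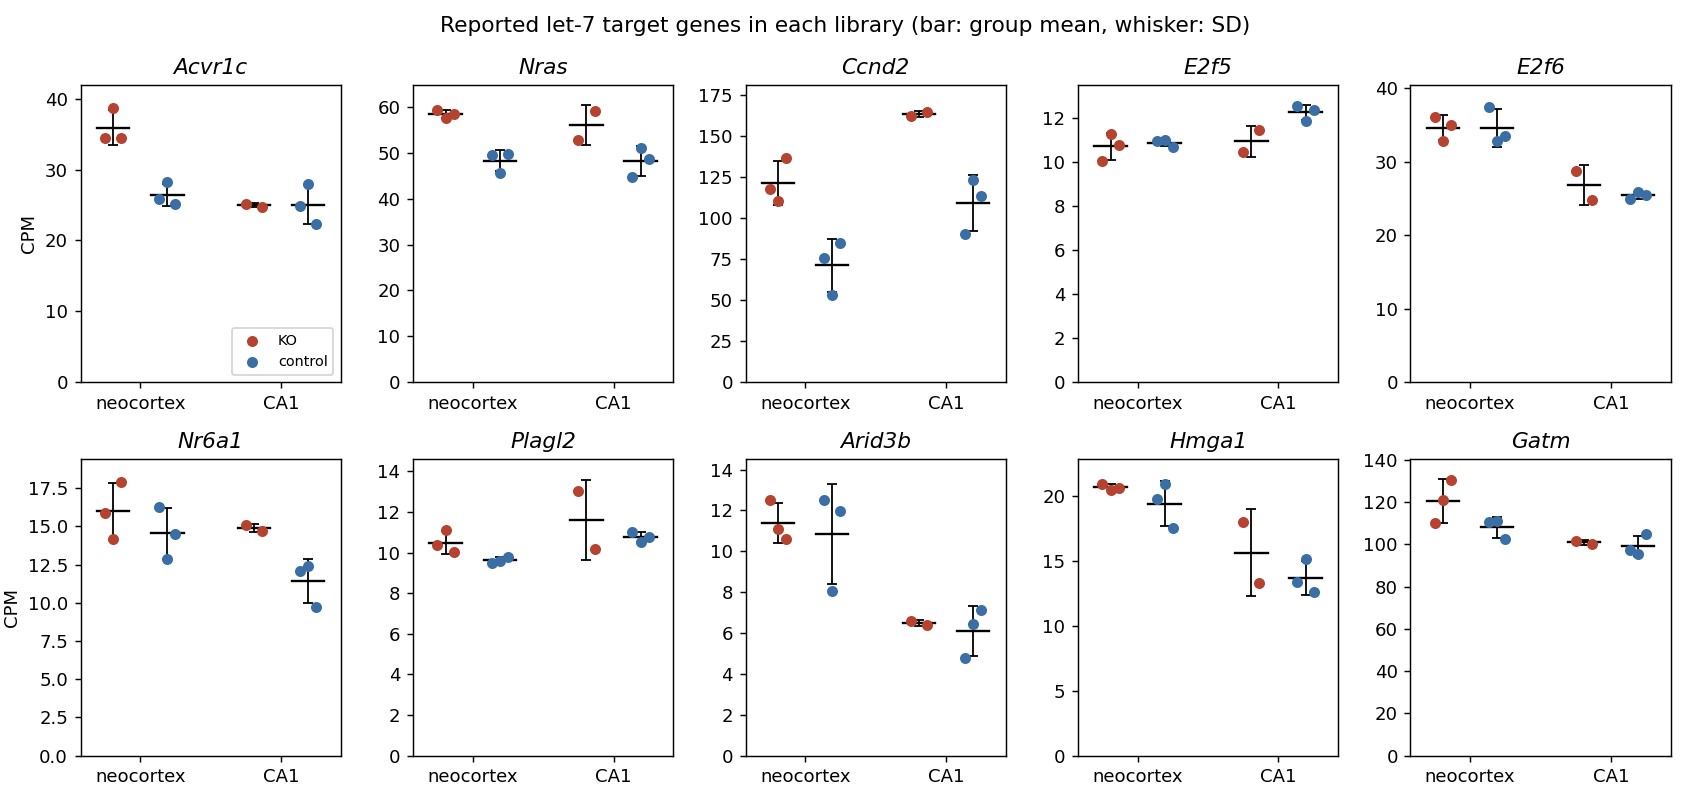
CPM of each gene in every library, KO (red) left of control (blue) within each tissue, with the group mean as a bar and the SD as a whisker (neocortex n = 3 and 3, CA1 n = 2 and 3). All KO points lie above all control points for Nras and Ccnd2 in both tissues, for Acvr1c and Plagl2 in the neocortex, and for Nr6a1 in the CA1.

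Acvr1c encodes ALK7, a type I receptor of the TGF-beta superfamily that signals for Nodal, activin and related ligands (chromosome 2, 58267453 to 58357752, minus strand). In the neocortex it had 34.5, 38.8 and 34.5 CPM in KO animals D5130, D5132 and D5133, against 25.8, 28.3 and 25.2 CPM in control animals D5129, D5134 and D5135. All KO libraries were above all control libraries, and the lowest KO value exceeded the highest control value by more than the range of either group. On the log2 scale KO exceeded control by 0.44 (SE 0.075, 1.36-fold, edgeR adjusted p = 0.0119), higher in 3 of 3 KO libraries. Its counts were 622 to 2018 reads per library. In the CA1 it had 25.2 and 24.8 CPM in KO animals D5130 and D5133, against 24.9, 28.0 and 22.4 CPM in control animals D5134, D5135 and D5138. The KO values fell inside the control range, and the difference on the log2 scale was -0.01 (SE 0.102, edgeR adjusted p = 0.988). The difference between the tissues was itself tested in 1 fit of the 11 libraries, as the KO effect in the CA1 less that in the neocortex. For Acvr1c it was -0.45 (SE 0.126), which did not pass over all genes (edgeR adjusted p = 0.228). With no filter on low counts the same difference passed (-0.48, adjusted p = 0.0253). None of the 10 genes passed this test, Acvr1c was the only 1 of the 10 with an unadjusted p under 0.05 (9.51% of all genes had one), and DESeq2 called none. Of all 19256 genes, 0.0935% passed (11 with a higher and 7 with a lower KO effect in the CA1), and with animal as a replicate block, since 4 animals gave both tissues, 36 and 78 did, none of the 10 genes among them.

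Acvr1c was called in 11 of the 12 alternative fits that keep at least 5 neocortex libraries and scale to the bulk of genes, and was lost without KO animal D5133 (log2 0.47, adjusted p = 0.0721). By the composition of their ERCC spike-in reads the neocortex libraries formed 2 sets, D5129, D5130 and D5132 against D5133, D5134 and D5135. Within them the log2 fold change of Acvr1c was 0.50 and 0.38. D5129 alone stands for control in the first set, and D5133 alone for KO in the second.

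Of 11 receptors for activin, TGF-beta and BMP ligands, 1 rose in the neocortex, Acvr1c itself, and none of the 11 passed in the CA1 by edgeR or DESeq2. There 2 of the 11 were higher at an unadjusted p under 0.05, as 9.51% of all genes were, and nothing is read from that count. They were Acvrl1, an endothelial receptor with 11.8 ± 0.848 CPM in KO CA1 and 7.99 ± 1.98 CPM in control CA1 (log2 0.57, adjusted p = 0.0906), and Tgfbr2, the TGF-beta type II receptor, with 21.1 ± 1.46 CPM in KO CA1 and 16.5 ± 2.03 CPM in control CA1 (log2 0.35, adjusted p = 0.118; SD, n = 2 and 3).

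Nras encodes a Ras small GTPase that relays growth factor signals to the MAP kinase cascade (chromosome 3, 103058339 to 103067906, plus strand). In the neocortex it had 59.4, 57.7 and 58.6 CPM in KO animals D5130, D5132 and D5133, against 49.6, 45.6 and 49.8 CPM in control animals D5129, D5134 and D5135. The KO libraries lay close together and above all control libraries. On the log2 scale KO exceeded control by 0.28 (SE 0.060, 1.21-fold, edgeR adjusted p = 0.0313), higher in 3 of 3 KO libraries. In the CA1 it had 52.9 and 59.1 CPM in KO animals D5130 and D5133, against 44.7, 51.1 and 48.7 CPM in control animals D5134, D5135 and D5138. The groups did not overlap, but D5130 stood close to the highest control. The log2 fold change there was 0.22 (SE 0.081), with an unadjusted p under 0.05 and an edgeR adjusted p of 0.177. The difference between the tissues was -0.06 (SE 0.101, edgeR adjusted p = 0.914).

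Nras was called in the neocortex in 7 of the same 12 fits. The call was lost without control D5129 (adjusted p = 0.0688), without KO animal D5130 (0.105), D5132 (0.0872) or D5133 (0.168), and when the spike-in sets entered as a batch (0.0933), while the log2 fold change stayed between 0.24 and 0.30.

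Of the 6 Ras small GTPases on the list, Nras rose and Hras fell in the neocortex. Hras, a close relative also reported as a let-7 target, had 98.3 ± 2.49 CPM in KO neocortex and 116 ± 6.40 CPM in control neocortex (SD, n = 3 each), or -0.24 on the log2 scale (SE 0.056, edgeR adjusted p = 0.0439). With libraries scaled by the spike-ins it stood at 0.77, below the median of all genes, which that scaling moved to 1.06. That call was lost on leaving out any 1 of the 6 animals (adjusted p = 0.0566 to 0.246). In the CA1 no Ras gene passed by edgeR or DESeq2. At an unadjusted p under 0.05, 1 was higher and 1 lower there, as were 9.51% and 7.78% of all genes.

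Ccnd2 encodes cyclin D2, which activates the CDK4 and CDK6 kinases at the start of the cell cycle and is needed for the birth of hippocampal neurons in adult mice (chromosome 6, 127125779 to 127151048, minus strand). In the neocortex it had 117, 110.5 and 136 CPM in KO animals D5130, D5132 and D5133, against 75.3, 53.2 and 84.5 CPM in control animals D5129, D5134 and D5135. In the CA1 it had 162 and 165 CPM in KO animals D5130 and D5133, against 90.3, 123 and 113 CPM in control animals D5134, D5135 and D5138. KO libraries were above control libraries in both tissues without overlap, and control animal D5134 was the lowest in both. The log2 fold change was the largest of the 10 genes in each tissue: 0.77 in the neocortex (SE 0.187, 1.71-fold), with an edgeR adjusted p of 0.114, and 0.58 in the CA1 (SE 0.112, 1.5-fold, edgeR adjusted p = 0.0251). The difference between the tissues was -0.19 (SE 0.268, edgeR adjusted p = 0.891). Both unadjusted p-values were under 0.05, and the adjusted one passed in the CA1.

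In the neocortex, Ccnd2 passed with DESeq2 (adjusted p = 0.00762) and without control D5134 (log2 0.61, adjusted p = 0.0265), and in the other 10 of the 12 fits it did not. In the CA1 it passed in 5 of 9 alternative fits and was lost when all 11 libraries shared 1 fit (adjusted p = 0.186) and without KO animal D5130 (0.167), KO animal D5133 (0.205) or the female control D5138 (0.0772), with log2 fold changes between 0.47 and 0.68 across the libraries left out.

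**Figure D3:**
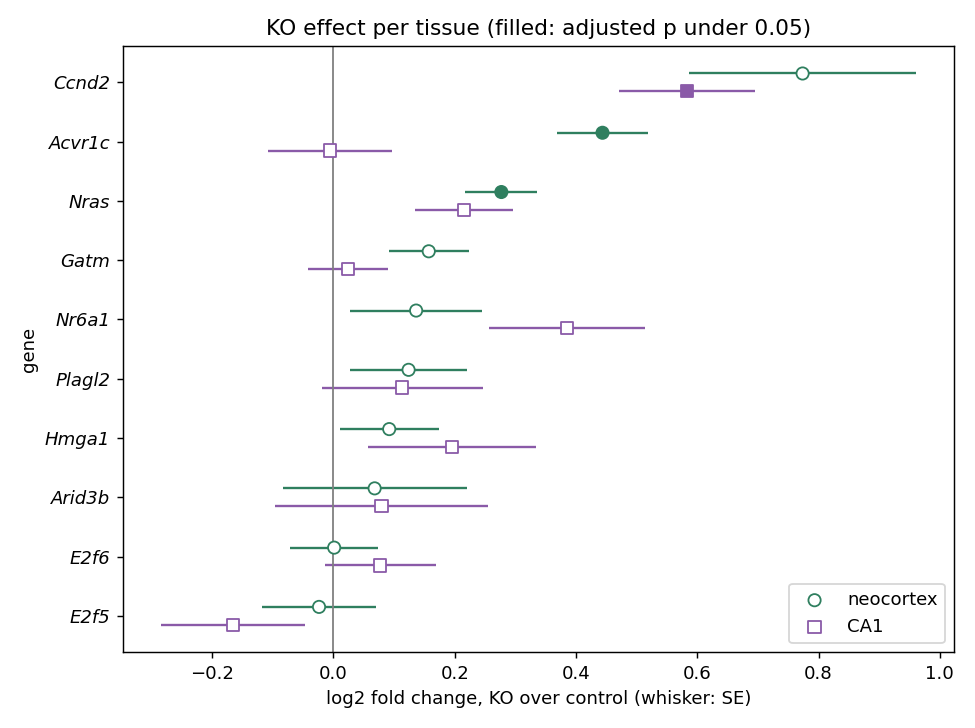
Log2 fold change (KO over control) of each gene in the neocortex (circles) and the CA1 (squares), with whiskers for the SE and filled symbols for an edgeR adjusted p under 0.05. Ccnd2 is furthest to the right in both tissues, Acvr1c stands at 0.44 in the neocortex and at -0.01 in the CA1, and E2f5 is the 1 gene left of the zero line in both tissues.

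Among 7 D cyclins and partner genes, Ccnd2 was the 1 that rose in the CA1 by edgeR, and DESeq2 called 2 higher. At an unadjusted p under 0.05, Ccnd2 and Cdk4 were higher and Rb1 lower, as were 9.51% and 7.78% of all genes. Cdk4, its partner kinase, had 43.8 ± 4.16 CPM in KO CA1 and 35.4 ± 1.72 CPM in control CA1 (SD, n = 2 and 3; log2 0.31, adjusted p = 0.0632), and Rb1, the retinoblastoma protein that D cyclin kinases phosphorylate, had 49.2 ± 2.49 CPM in KO CA1 and 54.9 ± 0.722 CPM in control CA1 (log2 -0.16, adjusted p = 0.270). In the neocortex none of the 7 passed by edgeR, and Ccnd2 alone had an unadjusted p under 0.05. Markers of dividing and newborn cells (Dcx, Prox1, Mki67 and Top2a) did not pass in either tissue by edgeR. In each tissue 1 of the 4, Dcx, was higher at an unadjusted p under 0.05, and DESeq2 called 1 higher. Their summed level lay between 165 and 200 CPM in KO CA1 and between 140 and 168 CPM in control CA1, and most of it was Prox1 (142.5 ± 20.9 CPM in KO CA1 and 128 ± 16.8 CPM in control CA1). Without Prox1 the sum was 37.8 to 42.5 CPM in KO CA1 and 28.3 to 31.1 CPM in control CA1, without overlap. Most of that was Dcx (mean 31.3 CPM in KO CA1 and 24.0 CPM in control CA1), while Mki67 and Top2a each overlapped between the groups. In the neocortex the sum without Prox1 overlapped, with 49.3 to 66.0 CPM in KO and 42.4 to 49.5 CPM in control libraries. The part of these markers in the rise of Ccnd2 was not tested. Ccnd2 shares 368 exon bases with 9330179D12Rik on the opposite strand, which held 1126 reads over all libraries, fewer than Ccnd2 held in any 1 library (2273 to 7974).

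E2f5 and E2f6 encode transcription factors of the E2F family that hold cell cycle genes down (E2f5: chromosome 3, 14578671 to 14606308, plus strand; E2f6: chromosome 12, 16810965 to 16826743, plus strand). E2f5 had 10.05 to 11.3 CPM in KO neocortex and 10.7 to 11 CPM in control neocortex, overlapping (log2 -0.02, SE 0.094, edgeR adjusted p = 0.938). In the CA1, E2f5 had 10.4 and 11.4 CPM in KO animals D5130 and D5133, against 12.5, 11.9 and 12.4 CPM in control animals D5134, D5135 and D5138. The KO values of E2f5 there lay below its control values, and the difference did not pass (log2 -0.17, SE 0.119, edgeR adjusted p = 0.538). The share of all genes with that order was not counted, and nothing is read from it. E2f6, which holds an 8mer, had 34.7 ± 1.68 CPM in KO neocortex and 34.6 ± 2.54 CPM in control neocortex (log2 0.0011, SE 0.073, adjusted p = 0.996), and 26.8 ± 2.72 CPM in KO CA1 and 25.4 ± 0.480 CPM in control CA1 (log2 0.08, SE 0.092, adjusted p = 0.740). Of the 10 E2F and partner genes on the list, E2f1, an activating E2F, fell in the neocortex, with 11.2 ± 1.32 CPM in KO and 15.2 ± 1.04 CPM in control libraries (SD, n = 3 each; log2 -0.44, SE 0.105, edgeR adjusted p = 0.0452). Under spike-in scaling it stood at 0.56, also below the median of all genes. That call too was lost on leaving out any 1 animal (adjusted p = 0.0560 to 0.198). None of the 9 tested in the CA1 passed by edgeR or DESeq2. At an unadjusted p under 0.05, 1 was lower, as were 7.78% of all genes.

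Nr6a1 encodes GCNF, an orphan nuclear receptor that represses pluripotency genes in the embryo (chromosome 2, 38723370 to 38927688, minus strand), and it held the most let-7 matches of the 10. In the CA1 it had 15.1 and 14.7 CPM in KO animals D5130 and D5133, against 12.1, 12.4 and 9.75 CPM in control animals D5134, D5135 and D5138. The groups did not overlap, and the female control D5138 was lowest. KO exceeded control by 0.39 on the log2 scale (SE 0.128, edgeR adjusted p = 0.122), and it did not pass in any of the 9 alternative fits (adjusted p = 0.0546 to 0.381). In the neocortex it had 15.9, 14.2 and 17.9 CPM in KO animals D5130, D5132 and D5133, against 16.2, 12.9 and 14.5 CPM in control animals D5129, D5134 and D5135, which overlap (log2 0.14, SE 0.109, edgeR adjusted p = 0.575).

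Plagl2, Arid3b and Hmga1 act on DNA and chromatin: a zinc finger transcription factor, an AT-rich interaction domain protein and an architectural AT-hook protein (Plagl2: chromosome 2, 153227759 to 153241426, minus strand; Arid3b: chromosome 9, 57790353 to 57836770, minus strand; Hmga1: chromosome 17, 27556620 to 27563663, plus strand). Plagl2 had 10.4, 11.1 and 10.0 CPM in KO neocortex libraries, against 9.48, 9.60 and 9.81 CPM in control neocortex libraries, which did not overlap but nearly touched (log2 0.12, SE 0.096, edgeR adjusted p = 0.560). In the CA1 its values overlapped, with 11.6 ± 1.99 CPM in KO and 10.8 ± 0.244 CPM in control libraries (log2 0.11, adjusted p = 0.734). Arid3b had 11.4 ± 0.987 CPM in KO neocortex and 10.8 ± 2.44 CPM in control neocortex (log2 0.07, adjusted p = 0.879), and 6.48 ± 0.143 CPM in KO CA1 and 6.10 ± 1.2 CPM in control CA1 (log2 0.08, adjusted p = 0.881). It had 126 to 673 reads per library, and control D5134 was its lowest library in both tissues (8.05 CPM in the neocortex and 4.77 CPM in the CA1). Hmga1 had 20.7 ± 0.244 CPM in KO neocortex and 19.4 ± 1.72 CPM in control neocortex (log2 0.09, adjusted p = 0.623), and 15.6 ± 3.35 CPM in KO CA1 and 13.7 ± 1.31 CPM in control CA1 (log2 0.20, adjusted p = 0.529). Hmga1 overlaps AI413582 on the opposite strand by 102 exon bases (13883 reads over all libraries) and has a near copy, Hmga1b, with 26 to 162 reads per library, so its counts are less certain. Exons of Acvr1c (168 bases), Arid3b (360 bases) and E2f5 (26 bases) also overlap a gene on the opposite strand, Gm13544, Gm17231 and 1810022K09Rik, with 63, 84 and 1881 reads over all libraries. None of their ARID3, PLAG and HMGA relatives passed in either tissue by edgeR or DESeq2, with 1 higher (Plagl1) and 1 lower (Hmga2) at an unadjusted p under 0.05, both in the CA1. Hmga2 was near the floor there, with a mean of 0.113 CPM in KO CA1 and 0.407 CPM in control CA1 and 47 reads over all CA1 libraries.

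Gatm encodes the mitochondrial enzyme of the first step of creatine synthesis (chromosome 2, 122594467 to 122611303, minus strand) and is the only metabolic gene among the 10. In the neocortex it had 110.0, 121 and 131 CPM in KO animals D5130, D5132 and D5133, against 111, 111 and 103 CPM in control animals D5129, D5134 and D5135. KO animal D5130 lay inside the control range, and the difference did not pass (log2 0.16, SE 0.066, edgeR adjusted p = 0.234). In the CA1 it had 101 ± 1.27 CPM in KO and 99.3 ± 4.94 CPM in control libraries (log2 0.02, edgeR adjusted p = 0.905). None of the 5 creatine genes passed by edgeR. DESeq2 called 1 higher in the neocortex and 1 lower in the CA1, and unadjusted p-values under 0.05 were reached by 2 higher genes in the neocortex and 1 lower gene in the CA1. Of all genes, 8.94% were higher at that level in the neocortex and 7.78% lower in the CA1.

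A wider list of 31 other genes reported as let-7 targets, among them Myc, Lin28b, Igf2bp1 and Hmga2, was compared in the same fits. Of the 27 tested in the neocortex, none rose, 1 fell (Hras) and 26 did not pass, with 3 higher and 1 lower at an unadjusted p under 0.05 and none higher and 1 lower by DESeq2. Of the 29 tested in the CA1, none passed by edgeR or DESeq2, with 4 lower at an unadjusted p under 0.05, where 7.78% of all genes were. The median log2 fold change of this list was 0.0097 in the neocortex and -0.0035 in the CA1. The list also holds Dicer1, the deleted gene itself, which did not pass in either tissue. In the CA1 the median is the value of Dicer1 (-0.0035), so it is not that of an intact gene. Several of these genes were near silent: Hmga2 averaged 0.203 CPM in KO neocortex and 0.131 CPM in control neocortex, and Lin28a had no read in any neocortex library. By edgeR none of 10 tested factors of let-7 maturation and turnover (the terminal uridylyl transferases Tut4 and Tut7, Dis3l2, Khsrp and others) and none of 3 tested let-7 host transcripts passed in either tissue. DESeq2 called 1 host transcript higher in the neocortex. At an unadjusted p under 0.05 stood 1 factor in the neocortex and 5 in the CA1 (2 higher, 3 lower), and 2 and 1 host transcripts, all higher. Of all genes, 8.94% were higher and 9.02% lower at that level in the neocortex, and 9.51% and 7.78% in the CA1.

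The 8mer and 7mer matches were also set against the fold changes of all genes with an annotated 3′ UTR, as a description. In the neocortex the median log2 fold change was 0.059 for 538 genes with at least 1 8mer, 0.033 for 1955 genes with a 7mer but no 8mer, and -0.0044 for 12226 genes with no match, while 2.97%, 2.56% and 1.47% of these rose and 0.372%, 1.02% and 1.44% fell. In the CA1 the medians were 0.022 for 534, 0.0022 for 1965 and -0.0014 for 12404 genes, 3.18%, 3.21% and 2.83% rose, and 2.06%, 2.19% and 1.54% fell. Genes with an 8mer have longer UTRs, with a median of 2435 bases against 994 bases for genes with no match in the neocortex, and the part of length in these differences was not tested.

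**Figure D4:**
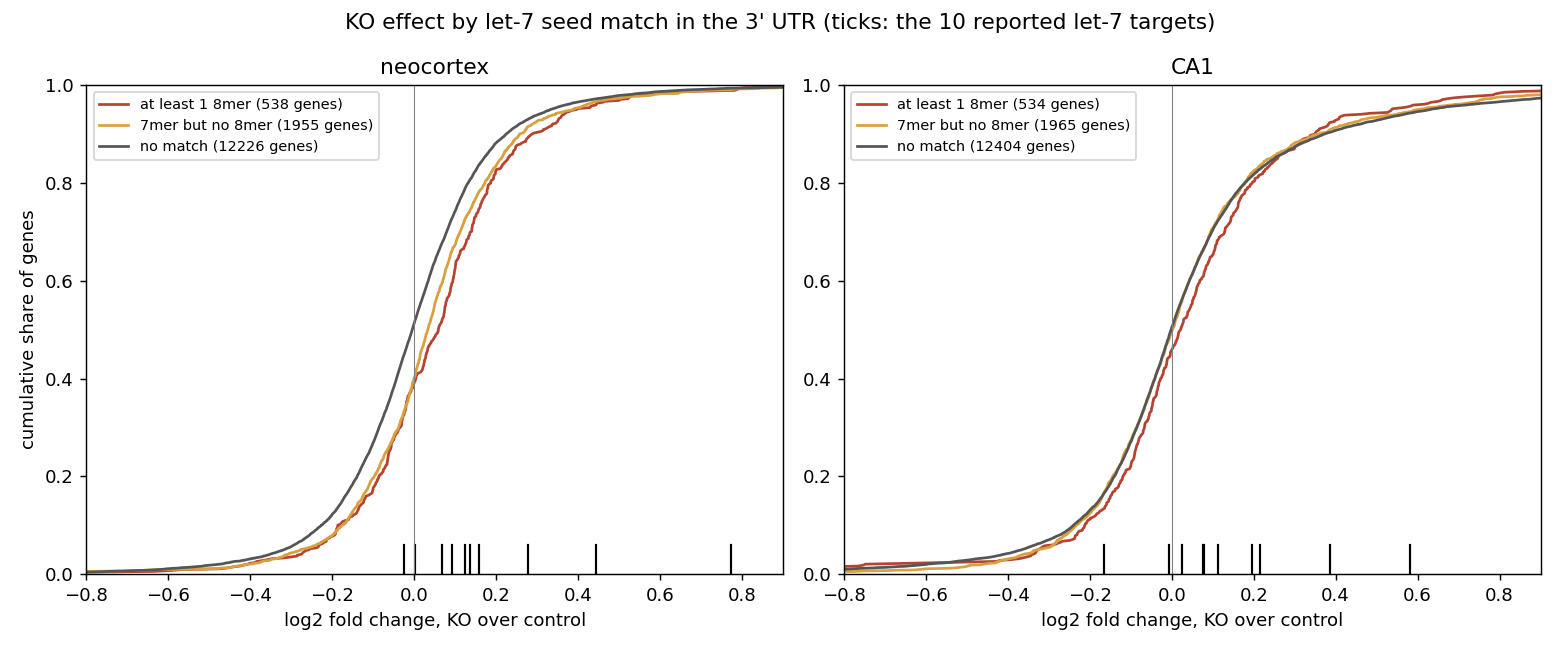
Cumulative share of genes (vertical axis) by log2 fold change, KO over control (horizontal axis), for genes with at least 1 let-7 8mer, with a 7mer but no 8mer, and with no match in the 3′ UTR, in each tissue. In the neocortex the 8mer and 7mer curves lie to the right of the curve without a match, with medians of 0.059, 0.033 and -0.0044, and in the CA1 they nearly coincide; the black ticks are the 10 reported targets.

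Markers of other cells moved in the same libraries. All 6 activated microglia markers (Cst7, Itgax, Ccl6, Cd68, Lyz2 and Tyrobp) rose in both tissues by edgeR, where 1.51% of all genes rose in the neocortex and 2.47% in the CA1. For the counts of markers that fell, given below, the shares of all genes were 1.2% in the neocortex and 1.41% in the CA1. No share over other gene sets was counted for summed levels that did not overlap. DESeq2 called 4 of them higher in the neocortex and 6 in the CA1. Cst7 and Itgax were near the floor in control neocortex (mean 0.0577 and 0.411 CPM). Summed levels were 48.8 to 64.3 CPM in KO neocortex and 30.2 to 32.3 CPM in control neocortex, and 67.4 to 80.0 CPM in KO CA1 and 18.7 to 26.4 CPM in control CA1. In the neocortex no astrocyte marker passed by edgeR, but DESeq2 called 1 of 5 higher, 3 were higher at an unadjusted p under 0.05, and their summed levels did not overlap (1247 to 1417 CPM in KO, 1120 to 1162 CPM in control). Gfap, the astrocyte filament protein, had 221 ± 43.7 CPM in KO neocortex and 111 ± 15.6 CPM in control neocortex (SD, n = 3 each; log2 0.99, edgeR adjusted p = 0.0620). In the CA1, 2 of 5 astrocyte markers rose (summed 1770 to 1970 CPM in KO, 1352 to 1437 CPM in control), 2 of 6 microglia markers rose (304 to 354 CPM in KO, 268 to 286 CPM in control) and all 6 oligodendrocyte markers fell (2805 to 2820 CPM in KO, 3389 to 4115 CPM in control). Of the excitatory neuron markers, 1 of 6 fell in each tissue (summed 4771 to 4868 CPM in KO and 5452 to 5530 CPM in control neocortex, 4444 to 4873 CPM in KO and 4945 to 5572 CPM in control CA1). Of 5 fibroblast markers 1 rose in the CA1 (111 to 118 CPM in KO, 62.4 to 71.8 CPM in control), of 3 endothelial markers 1 rose (86.3 to 89.1 CPM in KO, 74.9 to 95.8 CPM in control), and of 4 oligodendrocyte precursor markers 1 fell (167 to 171 CPM in KO, 188 to 198 CPM in control). No marker on these lists was at 0 in all libraries of a tissue. The part of these shifts in the rise of Acvr1c, Nras and Ccnd2 was not tested.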

How the data were processed

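Polyadenylated RNA was sequenced per animal and tissue. Per the labels' protocols, neocortex libraries used a stranded kit with ERCC spike-ins and CA1 libraries an unstranded kit. The deposited values are raw counts of reads per Ensembl gene (39017 genes and 92 ERCC entries). FastQC, GSNAP, SAMtools and bedtools with GRCm38 are named per the submitters' processing notes. Counting rule, annotation and strand setting are not given in the sources used here, so reads of overlapping genes cannot be told apart in the CA1. ERCC entries (0.113% to 0.686% of neocortex reads) were left out of library sizes.

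Within a tissue, KO was tested against control in edgeR 4.0.16 under R 4.3.3 (TMM, filterByExpr, robust quasi-likelihood F-test, two-sided, Benjamini-Hochberg over all genes tested, threshold 0.05). The SE is the absolute log2 fold change divided by the square root of F. Both tissues entered 1 fit for the test of their difference. DESeq2 1.42.0 was an alternative. The fits were tested on simulated counts. Symbols, exons and 3′ UTRs came from GENCODE M21 (96.6% of identifiers matched). Depth was 43144097 to 58329441 gene reads per neocortex library and 24806581 to 35684618 per CA1 library.

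By their labels, 4 animals gave both tissues, so animal was a block in an alternative. Deviations from group means correlated between tissues of 1 animal with r of 0.058 to 0.078, and of different animals with -0.096 to 0.027. Centring on the mean of so few libraries makes these values offset each other within a group. Their contrast is therefore no independent measure of pairing. No libraries of a group were copies (chi-square per gene of 10.08 to 22.6). The genes studied and the lists were chosen with earlier results of these data known. All 10 genes are named, and from each gene list up to 4 with the smallest p. Cell marker genes are named to show what a marker list holds, and Gfap, Wfs1, Mpped1, Fibcd1 and Prox1 were chosen after their values were seen. Myc, Lin28b, Igf2bp1, Lin28a, Tut4 and Khsrp are named only to show what a list holds. A few listed genes are counted but not reported here. The spike-in sets were an alternative added after the data were seen.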

Additional observations from a re-analysis of the deposited data

How the results depend on the processing

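For the 10 genes, no call changed sign. Of 390 fold changes recomputed, 38 had the other sign than the reported one, in 8 genes, none of them called, and 37 of these were at most 0.17 in size on the log2 scale (the other was E2f5 at 1.04 under spike-in scaling). With RLE size factors every call among the 10 stood. In the neocortex, 256 genes rose and 204 fell, against 396 and 374 with no filter on low counts, 476 and 432 with DESeq2, 122 and 69 when the spike-in sets entered as a batch, and 4 and 0 when libraries were scaled by the spike-ins. Leaving out 1 library gave 16 to 225 and 3 to 205. Of the 10 genes, 1 rose with the spike-in sets as a batch and 0 with spike-in scaling, and 0 to 3 with 1 library left out. Spike-in scaling moved the median of all genes by 1.06 (log2), against which Acvr1c stood at 1.46, Nras at 1.36 and Ccnd2 at 2.0, and it turned E2f1 to 0.56 and Hras to 0.77, below that median. In the CA1, 452 rose and 258 fell, against 858 and 609 with no filter and 419 lower with DESeq2. Leaving out 1 library gave 149 to 441 and 67 to 291, and 0 or 1 of the 10 genes higher, and the fit of all 11 libraries gave 0. For the difference between tissues, 11 and 7 genes passed, against 79 and 158 with no filter (1 of them Acvr1c), 66 and 95 with DESeq2, and 36 and 78 with animal as a replicate block, where Acvr1c had -0.46 (adjusted p = 0.136). The block changed no call among the 10 genes. Leaving out 1 library gave 0 to 19 and 0 to 12. The cause of these shifts was not tested. With 2 KO libraries in the CA1, a test without 1 of them assumes that the remaining one varies like the controls. The fewest reads of the 10 genes in 1 library were 126 (Arid3b). The only female is a CA1 control, so sex is part of that contrast.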

Other observations

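The 3 genes whose centred log2 CPM followed Acvr1c most closely over the 11 libraries, among 12562 genes, were Pou2f2, Lars and Zfp12, with Pearson's r of 0.95, 0.94 and 0.91. Predicted genes, clone names and sex-linked genes were left out. The 11 libraries share 7 animals and these values are a description. They are the largest of very many correlations over few libraries, so values this high by chance are not excluded. Pou2f2, a POU domain transcription factor, had log2 fold changes (KO over control) of 0.39 in the neocortex and 0.11 in the CA1. Lars, the cytoplasmic leucyl-tRNA synthetase, had 0.14 and -0.03, and Zfp12, a zinc finger protein, 0.25 and 0.02. None of the 3 passed the edgeR test in either tissue (adjusted p = 0.196 to 0.975).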
